A study of Mus musculus with 32 samples.

Results

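The 41 genes described here encode proteins of mitosis, from the kinases that start it to the proteins that cut the cell in 2 at its end. They were taken by symbol from the deposited tables of microglia sorted from mouse spinal cord. All 41 were listed among the 13377 genes of the female table. Of the 11999 genes of the male table, 37 were members, and Kif23, Kif4, Ncapg and Ttk were not listed there. No measured value entered the choice of single members, but the group was proposed with earlier results of these libraries known. Each member was placed in 1 of 10 roles, and transcripts of a gene were summed.

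Every library was labelled Cx3Cr1-Cre;Rosa26-iDTR. In this line, tamoxifen turns on a diphtheria toxin receptor in cells that express Cx3cr1, and the toxin then kills those cells for a time. Libraries labelled as depleted are called repopulated below, because new microglia had replaced the removed ones, and libraries labelled as not depleted are called resident. Both states were sampled at day 14, with a fracture (labelled injury) or without one. In females there were 4 resident libraries without fracture, 4 resident with fracture, 3 repopulated without fracture and 4 repopulated with fracture. In males the same groups held 3, 5, 2 and 7 libraries. Descriptions call the non-depleted libraries wild type, and call depleted ones Dt in females and iDTR in males. If the resident mice had another genotype, or received no toxin, repopulation cannot be told apart from that difference. Cx3cr1 also marks other macrophages, so the driver is not specific to microglia. Female RNA and libraries came from a company's ultra-low input service. Male RNA was extracted with RNeasy Plus Micro and amplified with SMART-Seq v4, so sex and library method are the same split and each table is described apart. The labels do not say that libraries came from separate animals, so the p-values speak only of sample-to-sample spread, which may be technical.

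Mitosis begins when Cdk1, bound to cyclin B, phosphorylates many proteins at once, so that chromosomes condense and a spindle of microtubules forms. Kinetochores join chromosomes to the spindle, a checkpoint holds the cell until every kinetochore is attached, and the anaphase-promoting complex then releases the sister chromatids. Transcripts of most of these proteins accumulate in G2 and M phase and are low in cells that do not divide. Microglia are long-lived macrophages of the central nervous system that divide rarely in the healthy adult and divide rapidly when they refill a tissue from which they were removed. In bulk RNA, fewer dividing cells and less RNA per dividing cell cannot be told apart.

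Total estimated counts were 16438827 to 18654165 per female library and 5722993 to 33697535 per male library. Levels are given as CPM, counts relative to library size scaled by the trimmed mean of M-values (TMM). The 7 microglial markers P2ry12, Tmem119, Cx3cr1, Sall1, Csf1r, Fcrls and Aif1 were all listed, and together reached 25780 to 32998 CPM in resident libraries of females, and 25279 to 28552 in repopulated libraries. In males the sums were 32866 to 36234 and 26146 to 32294 CPM, which did not overlap. Markers of border-associated macrophages, of which 3 of 6 were listed, together reached 0.836 to 5.43 CPM in female resident libraries, and from 4.96 to 65.1 in the repopulated ones. The B cell markers Cd79b, Ighm and Ighd, 3 of 6 listed, ran lower with repopulation in females, with sums of 343 to 461 CPM against a lowest of 489 in resident libraries. Csf3r, the only 1 of 5 neutrophil markers listed, had 856 to 996 CPM in female resident and 1083 to 1246 in female repopulated libraries. Cspg4, the only 1 of 6 markers of oligodendrocyte precursors listed, had 0 to 0.964 and 0.783 to 10.4 CPM, and 6 of 7 oligodendrocyte markers summed to 2192 to 2699 and 2637 to 3081. In males, border-associated macrophage markers summed to 0.428 to 7.1 CPM in resident and 4.01 to 67.4 in repopulated libraries. In the same order, male B cell markers summed to 429 to 543 and 312 to 451 CPM. Male Csf3r had 346 to 454 and 447 to 601 CPM, and male oligodendrocyte markers summed to 2447 to 2807 and 2616 to 3487. Of 6 monocyte markers, 2 were listed in females and 3 in males. Their sums overlapped, at 4.07 to 34.5 CPM in female resident and 9.68 to 52.7 in female repopulated libraries. Male sums were 2.54 to 97.0 and 8.55 to 39.5 CPM in that order. Without fracture, male sums did not overlap, at 6.68 to 12.8 against 33.2 to 36.5 CPM. Sums of astrocyte, neuron, endothelial and mural, and red blood cell markers overlapped in every table that listed them. None of the 6 T and NK cell markers was listed. Whether transcripts of these lists came from other cells or from the microglia themselves was not tested. Their part in the member results was not tested either.

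In females, the summed level of the mitosis transcripts was lower in every repopulated library than in any resident one. By replicate this sum was 1850, 502, 797 and 938 CPM in resident microglia without fracture, with a mean of 1022 ± 581 (SD, n = 4). With fracture, resident microglia had 687, 577, 1203 and 899 CPM, with a mean of 842 ± 276 (SD, n = 4). Repopulated microglia without fracture had 397, 329 and 478 CPM, with a mean of 401 ± 74.8 (SD, n = 3). With fracture they had 306, 332, 161 and 192 CPM, with a mean of 248 ± 84.1 (SD, n = 4). The states did not overlap, and the resident means were 2.55 times the repopulated ones without fracture and 3.4 times with fracture. These sums rested on 8838 to 31694 counts per resident library and 2589 to 8556 per repopulated library.

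A single female library was high for most members, though the test for outlying libraries given below did not flag its summed level. Resident replicate 1 without fracture held the highest level of 36 of the 41 members. Resident fracture replicate 3 was highest for 4 others and resident fracture replicate 4 for 1. The lowest levels lay mostly in repopulated fracture replicate 3, for 21 members, and in replicate 4 of that group, for 10. The highest female sum was 11.5 times the lowest. Without resident replicate 1 the resident mean without fracture was 746 CPM and the ratio to repopulated microglia 1.86.

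In males the sums were lower and the states overlapped. Resident microglia without fracture had 100, 184 and 153 CPM, with a mean of 145 ± 42.1 (SD, n = 3). With fracture they had a lowest of 189, a highest of 368 and a mean of 247 ± 76.4 CPM (SD, n = 5). Repopulated microglia without fracture had 191 and 289 CPM, both above the 3 resident libraries. With fracture, repopulated microglia ranged from 95.5 to 264 CPM with a median of 181, and had a mean of 168 ± 64.6 (SD, n = 7). The resident mean was 0.606 times the repopulated one without fracture and 1.47 times with fracture. Single male libraries held 1045 to 6581 member counts, and up to 15 members had 3 counts or fewer in a library, so single genes are measured less firmly there. Over the members in both tables, female sums were 6.75 times the male ones in resident microglia without fracture and 1.44 times in repopulated microglia with fracture, a gap that cannot be told apart from the library method.

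**Figure D1:**
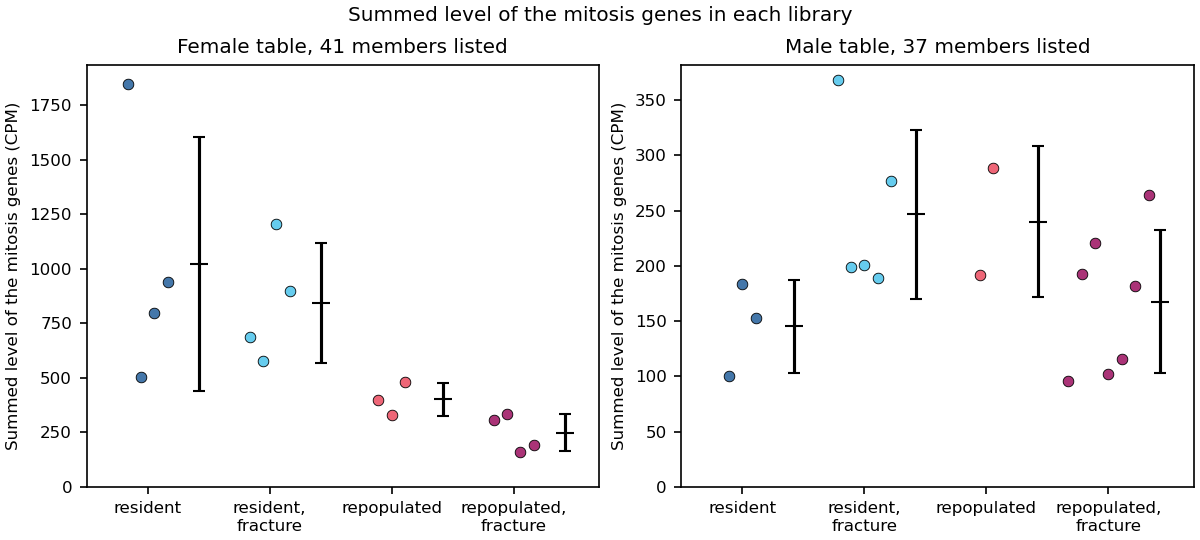
Summed level of the mitosis genes in each library, in CPM, for the 4 female groups (41 genes) and the 4 male groups (37 genes); points are libraries and the marks beside them are group means with SD. All 7 female repopulated libraries lie below all 8 resident ones, while the male states overlap with fracture and the 2 male repopulated libraries without fracture lie above the 3 resident ones.

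The members also varied together within female groups. After the group mean was taken from each gene's log2(CPM + 1), 807 of the 820 pairs of members correlated above 0 over the 15 female libraries, with a median Pearson r of 0.63. In males 578 of 666 pairs were above 0 over 17 libraries, with a median of 0.35. These are descriptions: the points share libraries, depth and scaling, and female resident replicate 1 without fracture enters every female pair. Pairs of all genes were not correlated, so whether members vary together more than other genes was not tested.

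**Figure D2:**
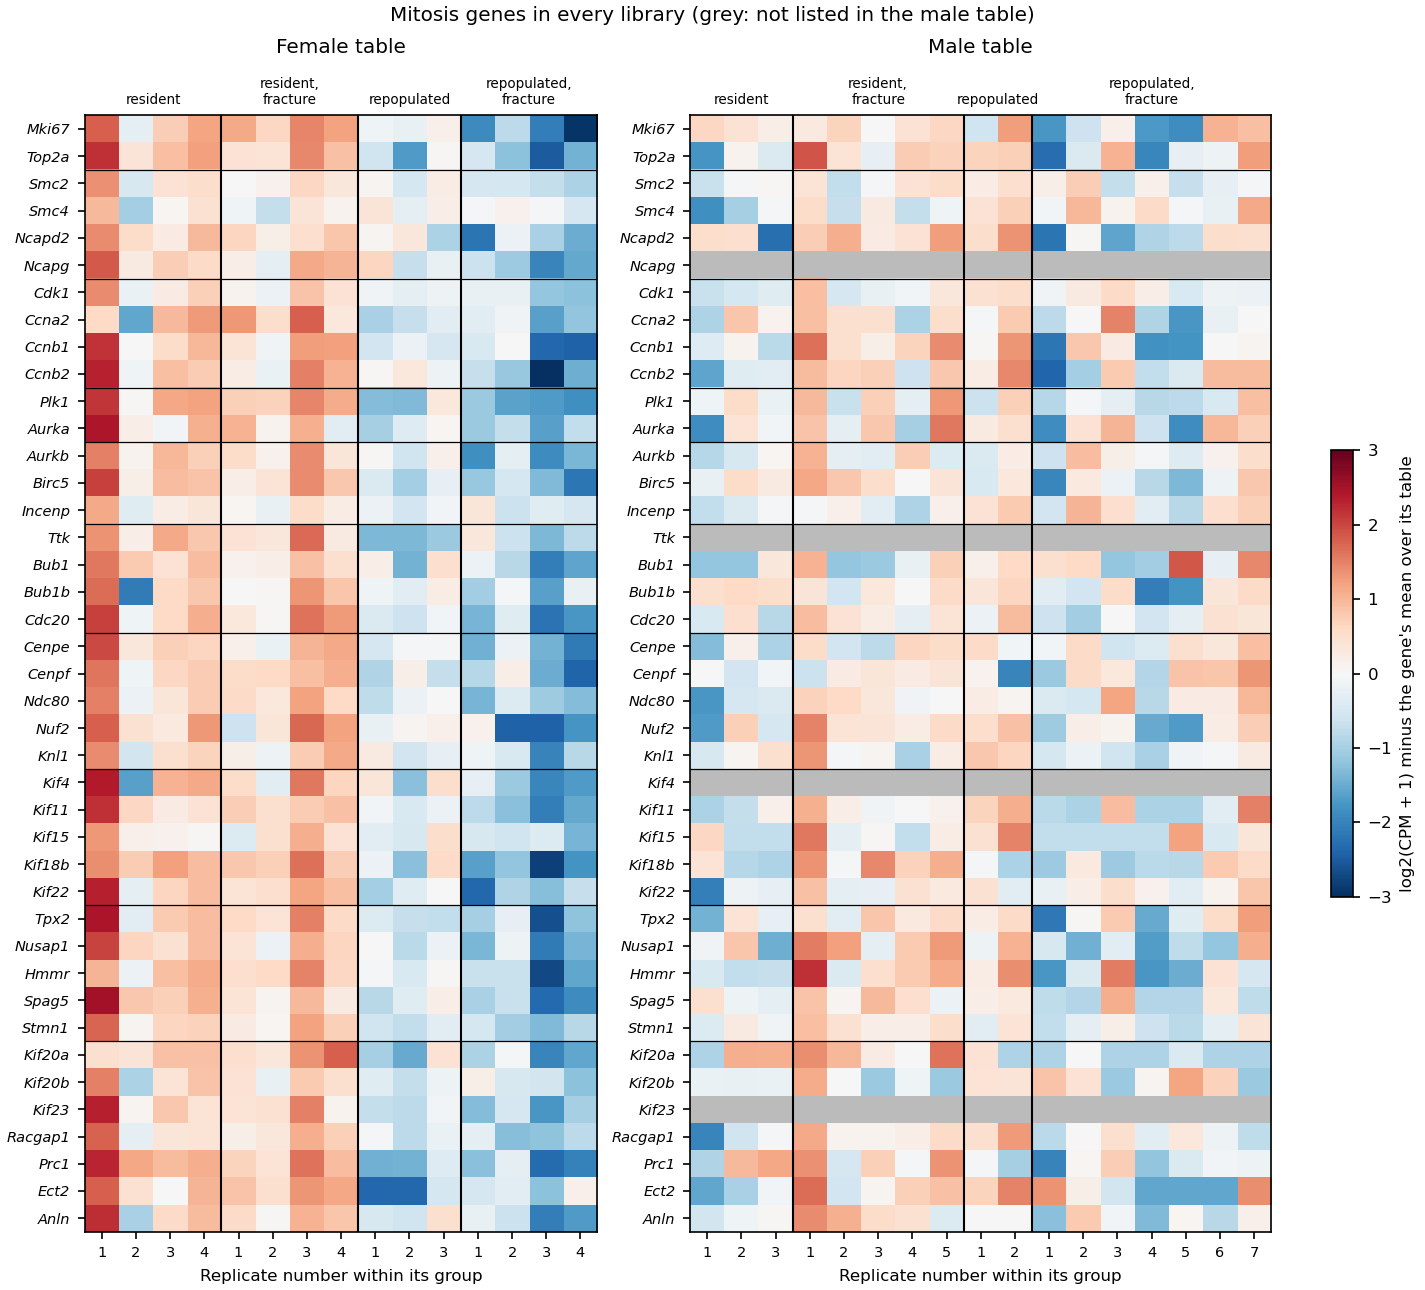
Level of each member in each library, as log2(CPM + 1) relative to the gene's mean over the libraries of its table, with genes ordered by role. The column of female resident replicate 1 without fracture is high for nearly all rows, and the female repopulated columns with fracture are low.

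Genes of G2 and M phase often share a pair of short promoter elements, the CCAAT box and the cell cycle genes homology region (CHR), so the promoters were searched for both. RefSeq windows from 250 bases before to 50 after a start site, on GRCm38.p6, were at hand for 34 of the 41 members. Those of Smc4, Ccna2, Aurkb, Incenp, Tpx2, Stmn1 and Kif20a were not used here. The CCAAT box was read as CCAAT, or as ATTGG from the other strand. The CHR was read as TTTGAA, with TTCAAA as its form on the other strand, and also as the palindrome TTCGAA. Matches may overlap, and each motif was counted on its own. Upstream sequences of 4 members show the arrangement: Mki67 at chr7:135716451-135716629 on the minus strand, Top2a at chr11:99024200-99024399 on the minus strand, Cdk1 at chr10:69352913-69353112 on the minus strand and Kif11 at chr19:37376182-37376381 on the plus strand. Each runs 5′ to 3′ up to the base before the outermost start, and capitals mark both motifs.
Mki67: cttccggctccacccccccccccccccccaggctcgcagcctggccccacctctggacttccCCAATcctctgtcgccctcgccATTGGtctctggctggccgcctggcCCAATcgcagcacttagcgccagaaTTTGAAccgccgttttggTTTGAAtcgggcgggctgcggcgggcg
Top2a: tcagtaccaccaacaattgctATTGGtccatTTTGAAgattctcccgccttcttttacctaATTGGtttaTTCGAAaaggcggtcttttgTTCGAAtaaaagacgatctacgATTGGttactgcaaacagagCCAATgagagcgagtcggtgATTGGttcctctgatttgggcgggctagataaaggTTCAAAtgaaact
Cdk1: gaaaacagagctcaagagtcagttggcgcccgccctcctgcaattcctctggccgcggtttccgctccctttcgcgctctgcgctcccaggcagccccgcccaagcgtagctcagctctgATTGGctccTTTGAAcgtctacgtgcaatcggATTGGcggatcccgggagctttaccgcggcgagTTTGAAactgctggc
Kif11: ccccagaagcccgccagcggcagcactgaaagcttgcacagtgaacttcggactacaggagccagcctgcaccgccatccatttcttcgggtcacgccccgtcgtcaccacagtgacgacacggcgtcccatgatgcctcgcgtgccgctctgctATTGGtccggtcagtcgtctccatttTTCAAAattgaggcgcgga

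Mki67 had 3 CCAAT boxes and 2 CHR matches in 179 bases, and Top2a had 5 and 4 in 200 bases. Cdk1 had 2 of each, and Kif11 had 1 of each. The CHR match nearest the start began 27, 13, 15 and 19 bases from the right end in that order. Counted from the RefSeq start of the window, which lies further downstream for Mki67 and Top2a, it began at -98, -23, -15 and -19. This start is used in the counts that follow. Over all 34 members with a window, 29 (85.3%) held a CHR match, against 21.7% of 27025 genes with a window and 17.1% of the 9393 such genes in the female table. A match within 50 bases of the start was found in 27 members (79.4%), against 6.12% of all genes and 4.52% of those in the female table. A CCAAT box stood in 26 members (76.5%), against 41.1% and 43.6%, and both motifs in 24 (70.6%), against 8.61% and 7.35%. No CHR match was found for Ccnb1, Birc5, Cenpe, Nuf2 and Nusap1 in these windows. Matches describe letters and are not evidence of binding.

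**Figure D3:**
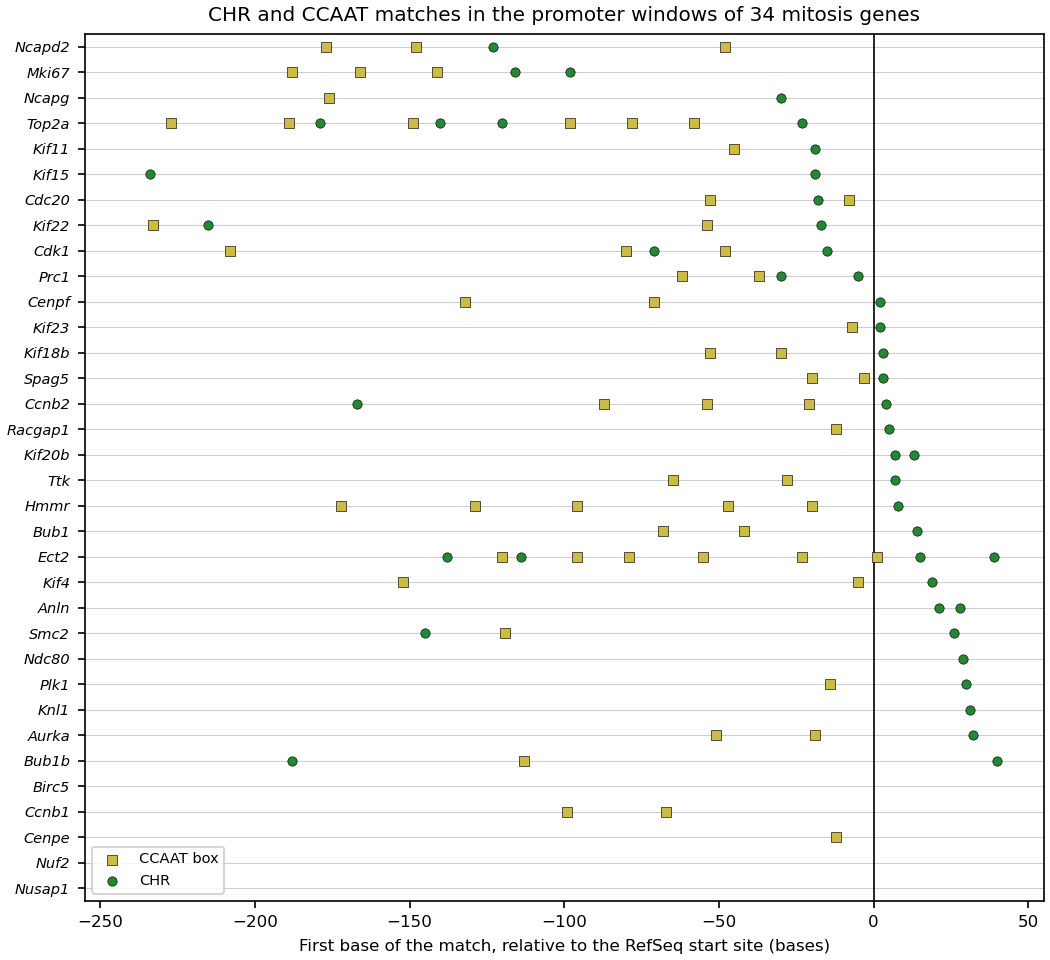
First base of each CHR match (circles) and CCAAT match (squares) in the promoter windows of 34 members, in bases from the RefSeq start site, with genes ordered by the CHR match nearest the start and those without one at the bottom. In 27 of the 34 genes a CHR match lies within 50 bases of the start.

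Repopulated and resident microglia were first compared as a mean over both fracture states, to ask whether the new cells differ from the old ones. In females, 30 of the 41 members fell and none rose (edgeR quasi-likelihood test, Benjamini-Hochberg adjusted p below 0.05 over all genes). Over all genes, 4.09% were called lower and 4.43% higher. All 41 members had a log2 change below 0, against 52.5% of all genes. Their median was -1.74 on the log2 scale, a 3.34-fold lower level, while the median of all genes was -0.01. At an unadjusted p below 0.05, 40 members passed (10.5% of all genes, lower), the exception being Smc4. Every repopulated library lay below every resident one for 7 members, against 1.08% of all genes. The count was 23 to 36 when 1 library at a time was left out, and 26 without the resident replicate 1 that was high for most members. By role, the calls covered both chromosome surface genes, 3 of 4 condensin genes, 3 of 4 cyclin and Cdk1 genes, both kinases, 2 of 3 passenger genes and 2 of 4 checkpoint genes. They also covered 3 of 5 kinetochore genes, 3 of 5 kinesin motors, all 5 spindle assembly genes and 5 of 7 cytokinesis genes.

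Mki67 and Top2a both fell in the mean over fracture states. Mki67, at chr7:135689784-135716450, coats mitotic chromosomes and is the usual mark of dividing cells. It had 85.1, 19.4, 40.5 and 55.7 CPM in female resident libraries without fracture and 53.2, 37.3, 67.2 and 56.7 with fracture. After repopulation it had 21.8, 20.2 and 26.5 CPM, and with fracture 5.61, 13.3, 4.91 and 2.25. The groups overlapped without fracture, through resident replicate 2, and did not overlap with fracture. Its log2 change over both states was -2.09 ± 0.37 (SE, edgeR adjusted p = 0.00353). Without fracture it was -1.14 ± 0.52 (adjusted p = 0.326) and with fracture -3.04 ± 0.51 (edgeR adjusted p = 0.0124).

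Top2a, at chr11:98992947-99024199, encodes the topoisomerase that untangles sister DNA. It had 142, 40.3, 58.3 and 73.4 CPM in female resident libraries without fracture and 41.7, 40.8, 84.7 and 57.3 with fracture. Repopulated libraries had 19.8, 8.68 and 31.1 CPM without fracture and 21.1, 12.5, 4.6 and 10.7 with fracture. All repopulated values were below all resident values in both states. The log2 change over both states was -2.09 ± 0.40 (SE, edgeR adjusted p = 0.00569). Top2a was not called in either fracture state alone.

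Among condensin genes, which compact chromosomes, Ncapg, Ncapd2 and Smc2 fell, with log2 changes of -1.69 ± 0.38, -1.34 ± 0.32 and -0.84 ± 0.23 (SE, edgeR adjusted p = 0.0109, 0.0165 and 0.0292). Mean levels of Smc2 in females were 29.4 CPM in resident and 18.5 in repopulated microglia without fracture, and 23.5 and 11.6 with fracture. Smc4, the other core ATPase of condensin, had a log2 change of -0.11 ± 0.26 (adjusted p = 0.871), with means of 25.1 and 22.4 CPM without fracture and 20 and 19 with fracture. It was the member with the smallest change.

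Of the 4 genes of Cdk1 and its cyclins, 3 fell. Cdk1, at chr10:69335146-69352912, is the kinase that drives entry into mitosis. It had 48.5, 15.2, 20.9 and 29.2 CPM in female resident libraries without fracture and 19, 15.4, 32.3 and 23.9 with fracture, against 16.4, 14 and 15.7, and 15, 14.8, 7.34 and 6.93, in repopulated ones. The groups overlapped without fracture, where resident replicate 2 lay within the repopulated range, and did not overlap with fracture. The log2 change was -0.96 ± 0.26 (SE, edgeR adjusted p = 0.0317), a call lost in 11 of 22 alternatives.

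Ccnb1, cyclin B1, at chr13:100778739-100786486, had 80.2, 17.3, 25.6 and 34.9 CPM in female resident libraries without fracture and 23.1, 15.9, 42.2 and 41.6 with fracture. Repopulated libraries had 11.2, 15.1 and 11.7 CPM, and 12.2, 17.2, 2.55 and 2.37 with fracture. Only with fracture did 1 repopulated library, replicate 2, reach the resident range. The log2 change was -1.74 ± 0.49 (SE, edgeR adjusted p = 0.0453), a call lost in 13 of 22 alternatives. Ccna2, cyclin A2, fell by 1.66 ± 0.43 (SE, edgeR adjusted p = 0.0291), and Ccnb2 had a change of -1.85 ± 0.54 that missed the threshold (edgeR adjusted p = 0.055).

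Plk1, the polo-like kinase of mitotic entry, at chr7:122159435-122169884, had the lowest adjusted p of the members. It had 52.3, 11.3, 26 and 26.8 CPM in female resident libraries without fracture and 18.8, 18.4, 32 and 25.2 with fracture. Repopulated libraries had 3.84, 3.83 and 14.0 CPM, and 4.59, 2.96, 2.67 and 2.37 with fracture. The groups overlapped by 1 library without fracture and lay far apart with fracture. The log2 change was -2.46 ± 0.37 (SE, edgeR adjusted p = 0.000983). Aurka, the kinase of centrosomes, fell by 1.86 ± 0.42 (SE, edgeR adjusted p = 0.0125).

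Of the chromosomal passenger complex, which corrects faulty attachments, 2 of 3 members fell. Birc5 (survivin, chr11:117849237-117855743) had 57.1, 14.8, 25.3 and 24.4 CPM in female resident libraries without fracture and 15, 17.5, 36.3 and 23.4 with fracture. Repopulated libraries had 9.30, 5.86 and 10.8 CPM, and 5.38, 8.6, 4.6 and 2.08 with fracture. No repopulated library reached a resident one, and the log2 change was -1.98 ± 0.35 (SE, edgeR adjusted p = 0.0025).

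Aurkb, the kinase of that complex, had 31.9, 11.5, 22 and 18.1 CPM in resident libraries without fracture and 16.1, 11.7, 29.8 and 14.0 with fracture, against 11, 6.71 and 11.8, and 2.27, 8.6, 2.11 and 3.46, in repopulated ones. It overlapped by 1 library without fracture and fell by 1.60 ± 0.34 over both states (SE, edgeR adjusted p = 0.00728). Incenp, the scaffold of the same complex, at chr19:9872295-9899489, had 57.0, 19.4, 29.7 and 33.0 CPM, and 26.4, 21.7, 37.7 and 29.8 with fracture. Its repopulated values were 22.4, 16.8 and 24.0 CPM, and 33.0, 15.8, 19.5 and 17.6 with fracture. These overlapped the resident values in both states, and the log2 change was -0.58 ± 0.22 (SE, edgeR adjusted p = 0.139).

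Of the checkpoint genes, Ttk (Mps1), the kinase that starts the checkpoint, was barely detected in repopulated microglia without fracture. Its levels were 5.49, 1.93, 4.6 and 3.43 CPM in resident libraries, from 276 counts in all, and 0, 0 and 0.168 CPM in repopulated ones, from 3 counts. The resident level was 70.5-fold higher, with a 95% counting interval of 23.9 to 344 that covers counting error only. With fracture it had 2.43, 2.19, 7.27 and 2.04 CPM in resident and 2.21, 0.626, 0 and 0.462 in repopulated libraries, and overlapped. Ttk passed the test over both states (edgeR adjusted p = 0.00414). Cdc20, the activator of the anaphase-promoting complex, fell by 1.97 ± 0.42 (SE, edgeR adjusted p = 0.00951). Bub1 had a change of -1.66 ± 0.59 and Bub1b one of -1.11 ± 0.48, and neither passed (edgeR adjusted p = 0.109 and 0.205).

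Of the kinetochore genes, Ndc80, which grips microtubules, fell by 1.59 ± 0.30 (SE, edgeR adjusted p = 0.00331). It had 19.7, 5.51, 8.42 and 11.3 CPM in female resident libraries without fracture and 9.81, 8.08, 15.7 and 10.1 with fracture, against 3.28, 5.47 and 6.26, and 1.76, 4.50, 2.49 and 1.96, after repopulation. One repopulated library without fracture lay above the lowest resident one, and the groups with fracture did not overlap. The motor Cenpe fell by 1.64 ± 0.38 and Cenpf by 1.59 ± 0.42 (SE, edgeR adjusted p = 0.0138 and 0.031). Nuf2, the partner of Ndc80, had -1.99 ± 0.79 and the scaffold Knl1 had -1.12 ± 0.35, and neither passed (edgeR adjusted p = 0.159 and 0.0664).

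Of the 5 kinesin motors, 3 fell. Kif11 (Eg5, chr19:37376382-37421863), which pushes the spindle poles apart, had 26.8, 8.4, 6.26 and 7.18 CPM in female resident libraries without fracture and 9.07, 7.49, 9.36 and 10.3 with fracture. Repopulated libraries had 4.77, 3.44 and 4.36 CPM, and 2.55, 1.54, 0.435 and 1.10 with fracture. No repopulated library reached a resident one, and the log2 change was -2.11 ± 0.37 (SE, edgeR adjusted p = 0.00206). The table lists Kif11 in 2 entries with identical counts, and it was counted once.

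Kif18b, which limits the length of astral microtubules, had 19.5, 12.3, 17.5 and 13.8 CPM, and 12.8, 11.9, 23.5 and 12.1 with fracture, in resident libraries. Repopulated libraries had 5.95, 2.25 and 10.6 CPM, and 1.53, 2.45, 0.124 and 1.27 with fracture. No library overlapped, and Kif18b fell by 2.40 ± 0.42 (SE, edgeR adjusted p = 0.00226). The chromokinesin Kif22 fell by 1.96 ± 0.41 (SE, edgeR adjusted p = 0.00821). Kif15 and Kif4 had changes of -1.01 ± 0.33 and -1.91 ± 0.67 and did not pass (edgeR adjusted p = 0.0715 and 0.109).

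All 5 spindle assembly genes fell. Stmn1, stathmin, at chr4:134468320-134473843, destabilises microtubules and had the highest level per kilobase of the members in every group, 81.5 CPM per kb in female resident microglia without fracture against 25.4 for Cdk1, the next. Its levels were 153, 48.0, 71.1 and 73.2 CPM in resident libraries without fracture and 53.7, 47.2, 105 and 74.7 with fracture. Repopulated libraries had 29.7, 26.4 and 35.9 CPM, and 31.2, 21.5, 17.4 and 24.9 with fracture. No repopulated library reached a resident one, and the log2 change was -1.53 ± 0.26 (SE, edgeR adjusted p = 0.00226). Spag5 (astrin) fell by 2.11 ± 0.44, Tpx2, which activates Aurora A, by 2.09 ± 0.48, Nusap1 by 1.77 ± 0.39 and Hmmr by 1.72 ± 0.40 (SE; edgeR adjusted p from 0.00678 for Spag5 to 0.0151 for Tpx2).

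Of the cytokinesis genes, Prc1, which cross-links the midzone, at chr7:80294445-80316259, fell in both fracture states. It had 85.7, 39.2, 33.5 and 36.8 CPM in female resident libraries without fracture and 27.4, 22.5, 54.0 and 33.1 with fracture. Repopulated libraries had 5.58, 5.64 and 12.7 CPM, and 6.51, 13.7, 2.61 and 3.35 with fracture. No library overlapped, and the log2 change was -2.50 ± 0.40 (SE, edgeR adjusted p = 0.00199). The centralspindlin motor Kif23 fell by 2.17 ± 0.43 (SE, edgeR adjusted p = 0.00493). The exchange factor Ect2 fell by 2.53 ± 0.69 (SE, edgeR adjusted p = 0.0359), and the size of this change leans on few counts. It had 0, 0 and 2.52 CPM in repopulated libraries without fracture, so that replicate 3 alone sets that group's level, and 1.18 to 4.68 with fracture, against 4.1 to 16.7 in resident libraries. Its partner Racgap1 fell by 1.33 ± 0.30 and the midzone kinesin Kif20a by 1.78 ± 0.43 (SE, edgeR adjusted p = 0.0129 and 0.0179). Anln and Kif20b had changes of -1.58 ± 0.48 and -1.07 ± 0.34 and did not pass (edgeR adjusted p = 0.0638 and 0.0643).

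**Figure D4:**
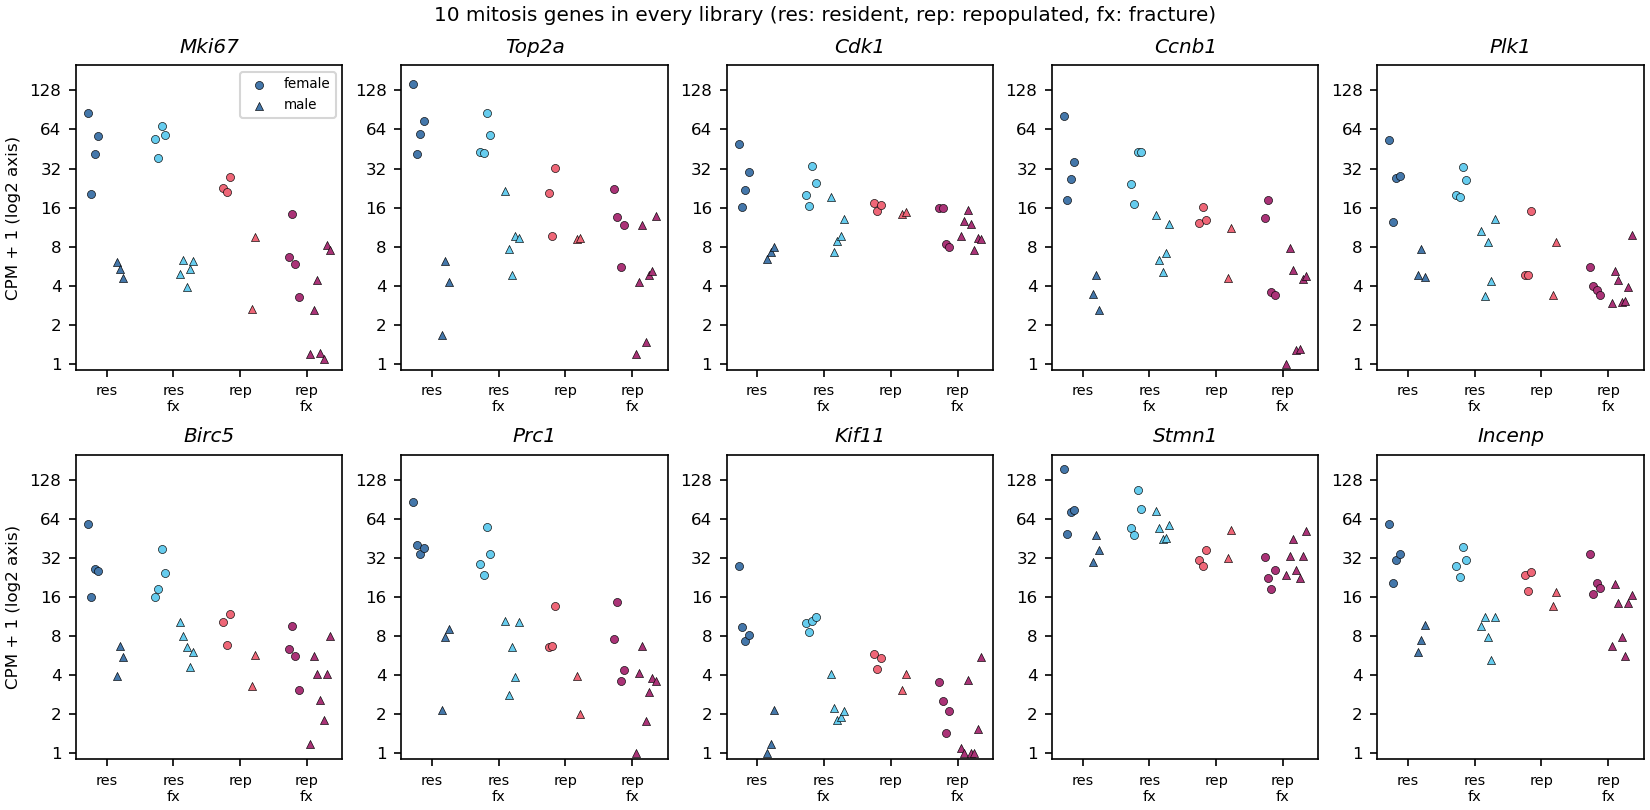
Level of the 10 panel genes in every library, as CPM + 1 on a log2 axis, by group (res, resident; rep, repopulated; fx, fracture), with circles for female and triangles for male libraries. The female repopulated points of Top2a, Birc5, Prc1, Kif11 and Stmn1 lie below all female resident points, while the male points overlap more.

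The comparison was next made within each fracture state. Without fracture, 2 of 41 members fell in females, Ttk and Prc1 (edgeR adjusted p = 0.0269 and 0.0401), where 0.964% of all genes were called lower. The log2 changes of all 41 were below 0, against 52.4% of all genes, with a median of -1.33, and 27 members had an unadjusted p below 0.05 (7.89% of all genes, lower). In 15 members no repopulated library reached a resident one, against 6.44% of all genes. The Ttk call was lost in 5 of 23 alternatives and that of Prc1 in 13, with adjusted p over them of 0.000123 to 0.143 and 2.28e-05 to 0.207. The count was 0 without resident replicate 4 or repopulated replicate 1 or 2, and 1, Ttk, without resident replicate 1, resident fracture replicate 1, 2 or 4, or repopulated fracture replicate 1. DESeq2 called 13 members.

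With fracture, 13 of 41 members fell in females and none rose, where 1.08% of all genes were called lower (edgeR quasi-likelihood, Benjamini-Hochberg). They were Kif18b, Plk1, Mki67, Kif11, Ndc80, Aurkb, Birc5, Stmn1, Ncapg, Hmmr, Prc1, Cdc20 and Kif23. All 41 changes were below 0, against 50% of all genes, with a median of -2.06, and 36 had an unadjusted p below 0.05 (6.57% of all genes, lower). In 31 members no repopulated library reached a resident one, against 5.64% of all genes. Kif18b, with -3.47 ± 0.59 (SE, edgeR adjusted p = 0.00994), and Plk1, with -2.90 ± 0.50 (SE, edgeR adjusted p = 0.012), led the list. Kif18b, Plk1, Mki67 and Kif11 were called under all 23 alternatives. The count fell to 6, 4 and 5 without resident fracture replicate 1, 3 or 4, and to 6, 6 and 4 without repopulated fracture replicate 1, 3 or 4. It rose to 23 without resident replicate 1 from the group without fracture, and DESeq2 called 31.

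**Figure D5:**
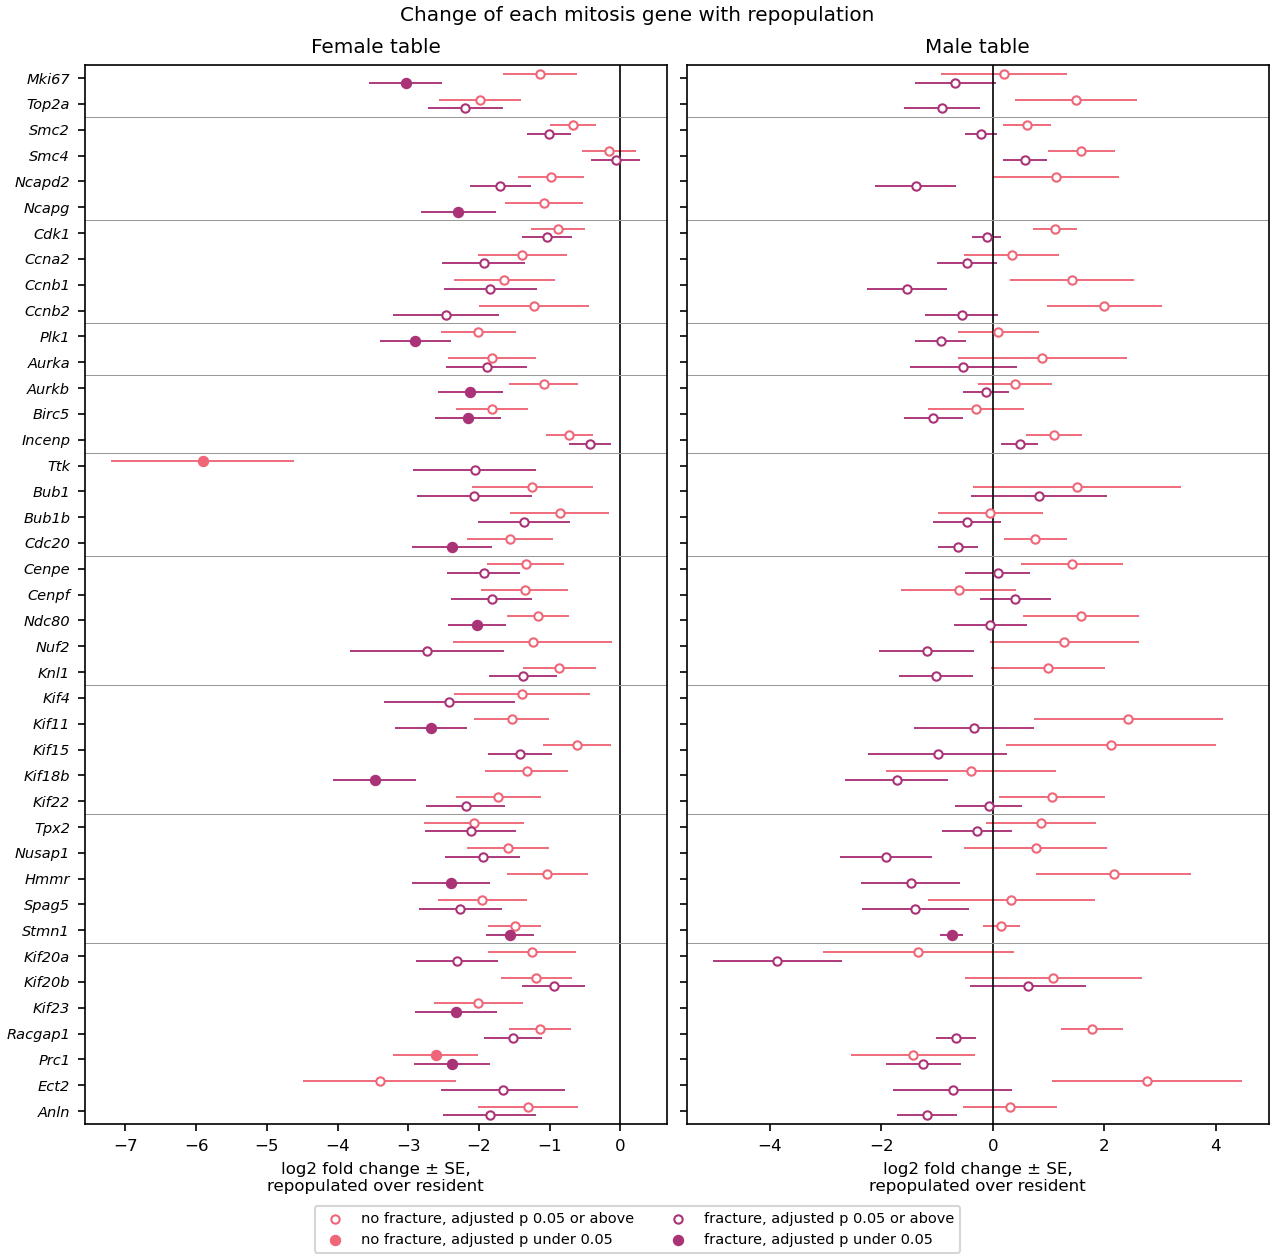
Log2 change of each member between repopulated and resident microglia without and with fracture, with standard errors, in the female and male tables, ordered by role; filled points have an adjusted p below 0.05. Both female points of all 41 members lie below 0, while 31 of 37 male points without fracture lie above 0 and 31 of 37 with fracture below.

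Fracture itself was compared within each state. In female resident microglia 0 of 41 members were called, as were 0.0% of all genes (edgeR, and 0 members with DESeq2), and 0 had an unadjusted p below 0.05 (4.93% of all genes). The median log2 change was -0.31, with 36 members below 0, as were 52.1% of all genes. Without resident replicate 1 the median was 0.16 with 6 members below 0, so the sign rests on that library. In female repopulated microglia 0 members were called by edgeR, as were 0.0% of all genes, and DESeq2 called 1, Kif18b. The median was -0.82 with 38 members below 0 (51.1% of all genes), and 11 members had an unadjusted p below 0.05, against 10.5% of all genes. Mki67 had a change of -1.81 ± 0.52 (edgeR adjusted p = 0.339) and Kif18b one of -2.21 ± 0.60 (edgeR adjusted p = 0.312), while Incenp had 0.03 ± 0.32.

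The repopulation effect did not differ detectably between the fracture states in females. The difference had a median of -0.50, with 35 members below 0 (47.6% of all genes), and 0 of 41 members passed, as did 0.0% of all genes (edgeR, and 0 with DESeq2). Kif18b, Mki67 and Ttk, 3 members, had an unadjusted p below 0.05 (3.69% of all genes), named here after their values were seen, with log2 differences of -2.14 ± 0.79, -1.90 ± 0.70 and 3.84 ± 1.51. The adjusted p was 1 for each.

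In the male table no such fall was measured. Averaged over fracture states, 0 of 37 members were called by edgeR, where 5.68% of all genes were called lower and 7.14% higher. The changes were below 0 for 16 members (52.8% of all genes) and above 0 for 21, with a median of 0.14. At an unadjusted p below 0.05, Smc4, Incenp and Cdk1 were higher and Kif20a lower, 4 in all (24.0% of all genes), named after their values were seen. DESeq2 called 1, Smc4, with a log2 change of 1.10 ± 0.37 (adjusted p = 0.0235), against 1.09 ± 0.36 by edgeR (adjusted p = 0.0501).

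Without fracture, 0 of 37 male members were called by edgeR (7.42% of all genes in either direction, 4.7% higher), although 31 of 37 changes were above 0. Over all genes, 52.8% of changes were below 0. Their median was 0.99. In 13 members both repopulated libraries lay above all 3 resident ones, against 17% of all genes. Of these 37, 4 members, Racgap1, Cdk1, Smc4 and Incenp, had an unadjusted p below 0.05 (9.93% of all genes, higher), named after their values were seen, and DESeq2 called 1, Racgap1. Racgap1 had 1.39, 5.21 and 8.22 CPM in resident and 12.2 and 21.8 in repopulated libraries, a log2 change of 1.79 ± 0.55 (SE, edgeR adjusted p = 0.052). Cdk1 had 5.46, 6.21 and 6.99 CPM against 13.2 and 13.8, a change of 1.12 ± 0.40 (SE, edgeR adjusted p = 0.106). Neither overlapped. Leaving out 1 library gave 0 to 2 calls: 2, Racgap1 and Smc4, without resident replicate 3, and 1, Racgap1, without resident fracture replicate 1 or repopulated fracture replicate 1, 5 or 7, all higher. Without repopulated replicate 1 it was 1, Cenpf, called lower against the single library left in that group.

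With fracture, 1 of 37 male members fell, Stmn1, where 1.88% of all genes were called lower. Stmn1 had 72.7, 53.2, 44.0, 44.4 and 56.3 CPM in resident libraries and a lowest of 21.5, a median of 31.9 and a highest of 50.8 in the 7 repopulated ones. The groups overlapped, and the log2 change was -0.73 ± 0.21 (SE, edgeR adjusted p = 0.0439). The call was lost in 15 of 28 alternatives, with adjusted p from 0.0133 to 0.514. Male titles carry V numbers in separate ranges, whose meaning the labels do not give. With the range as a term, the log2 change of Stmn1 was -0.72 (edgeR adjusted p = 0.0686). The change was -0.78 within V64 to V69 (edgeR adjusted p = 0.251) and -0.64 within V99 to V110 (edgeR adjusted p = 0.514).

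Of the 37 changes with fracture, 31 were below 0 (50.9% of all genes), with a median of -0.66. At an unadjusted p below 0.05 stood 5 members, Stmn1, Kif20a, Nusap1, Anln and Ccnb1, named after their values were seen, and 7.17% of all genes, lower. Kif20a was the only member whose groups did not overlap (2.7% of members), near the 1.58% of all genes. It had 0 counts in 5 of the 7 repopulated libraries. Those 7 libraries held 9644000 to 14914799 total counts, against 11770850 to 33697535 in the resident fracture libraries. The number of called members was 0 without resident replicate 3, any single resident fracture replicate, or repopulated fracture replicate 1, 4, 5 or 6. It was 2 without resident replicate 1 or repopulated replicate 1 or 2, with Kif20a, and without repopulated fracture replicate 7, with Nusap1.

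The panel shows how thin the male data are. Mki67 had 5.10, 4.37 and 3.6 CPM in resident libraries without fracture and 1.62 and 8.45 in repopulated ones, a log2 change of 0.21 ± 1.13 (SE, edgeR adjusted p = 0.963). With fracture it ranged from 2.93 to 5.33 CPM in resident and from 0.0982 to 7.17 with a median of 1.57 in repopulated libraries, so that both tails lay in the repopulated group. Top2a had 0.677, 5.21 and 3.28 CPM against 8.11 and 8.36 without fracture, which did not overlap, with a change of 1.49 ± 1.09 (SE, edgeR adjusted p = 0.541). Prc1 had 1.16, 6.88 and 7.98 CPM against 2.90 and 1.00, a change of -1.44 ± 1.12. Incenp had 4.98, 6.38 and 8.69 CPM against 12.5 and 16.3 (1.10 ± 0.51, edgeR adjusted p = 0.235).

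Fracture gave no call among male members. In resident microglia 0 of 37 were called (0.00833% of all genes), by edgeR or DESeq2, with 35 above 0 where 50.1% of all genes were below, and a median of 0.88. At an unadjusted p below 0.05 stood 3 members, Racgap1, Cdk1 and Stmn1 (4.26% of all genes). In repopulated microglia 0 were called (0.00833% of all genes), by edgeR or DESeq2, with 30 below 0 (48.0% of all genes) and a median of -0.47. At an unadjusted p below 0.05 stood 1 member, Racgap1 (8.29% of all genes). The difference of the repopulation effect between fracture states had a median of -1.34 with 35 below 0 (48.3% of all genes). By edgeR or DESeq2 0 members passed (0.00833% of all genes), and 7 had an unadjusted p below 0.05, against 7.38% of all genes.

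Whether the repopulation effect differed between the tables was tested in 1 fit of all 32 libraries, where sex cannot be told apart from the library method. The female minus male log2 difference was below 0 for 36 of 37 shared members, against 48.7% of all genes, with a median of -1.83. By edgeR, 2 members passed, where 0.723% of all genes were called lower, and 23 had an unadjusted p below 0.05 (5.23% of all genes, lower). Racgap1 differed by -1.88 ± 0.46 (SE, edgeR adjusted p = 0.0437) and Cdk1 by -1.49 ± 0.38 (SE, edgeR adjusted p = 0.0488). Over 36 alternatives the adjusted p ran from 0.00584 to 0.181 for Racgap1 and from 0.0107 to 0.166 for Cdk1, and 21 and 25 of them lost the call. DESeq2 called 8 members. The count was 8 without female resident replicate 2, 4 without female repopulated fracture replicate 2, and 0 or 1 without any of 21 other libraries.

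Other cell cycle genes were listed apart from the members, as the mean over fracture states in females, where 4.09% of all genes were called lower and 4.43% higher. Among kinetochore, centromere and checkpoint genes 15 of 38 fell and none rose, among them Cdca8 (borealin), a further passenger subunit, by 2.38 ± 0.35, and Nsl1, of the kinetochore, by 1.15 ± 0.18. Of 25 genes of mitotic entry and exit 11 fell, among them the kinase Pbk by 2.47 ± 0.49. Of 32 S phase genes 14 fell, among them the replication licensing gene Mcm2 by 1.33 ± 0.18 and Uhrf1, which maintains DNA methylation, by 2.07 ± 0.34. The medians of these lists were -1.04, -1.30 and -0.75. Of 35 further genes of the spindle, centrosome and cytokinesis 8 fell, among them Aspm by 2.61 ± 0.46 and the kinase Nek2 by 2.28 ± 0.38, with a list median of -0.24.

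Among regulators, Foxm1, the transcription factor of G2 and M genes, fell by 1.67 ± 0.46 (SE, edgeR adjusted p = 0.0339) and was the only one called of 20 cell cycle transcription factors. Of 18 genes of the anaphase-promoting complex and its regulators 1 fell, the inhibitor Fbxo5, by 0.82 ± 0.21. Both shares are near the 4.09% of all genes called lower. Of 19 cohesin and further condensin genes 3 fell and 1, the cohesin loader Nipbl, rose by 0.34 ± 0.08. Of 8 G1 cyclin and kinase genes 3 fell, among them cyclin D1 (Ccnd1) by 0.62 ± 0.11. Of 12 Cdk inhibitors and antiproliferative genes 2 fell, Cdkn1a (p21) by 1.15 ± 0.12 and Btg2 by 0.34 ± 0.07, and Cdkn2b (p15) rose by 1.3 ± 0.38. On the same mean in males, edgeR called 0 of 29 kinetochore genes and 0 of 29 S phase genes. It also called 0 of 17 transcription factors and 0 of 7 G1 genes. In that order, 2, 2, 1 and 0 of these genes had an unadjusted p below 0.05, all lower. Among all male genes 24.0% had such a p in either direction, a larger share than in each of these lists. Higher calls were 1 of 19 cohesin and condensin genes (Pttg1, securin, 0.33 ± 0.11), 1 of 21 of mitotic entry and exit (Tmpo, 0.46 ± 0.14) and 1 of 32 of the spindle, centrosome and cytokinesis (Sass6, of centriole assembly, 0.96 ± 0.30). Lower calls were 1 more of those 32 (Vps4a, -0.44 ± 0.10), 1 of 18 of the anaphase-promoting complex (Anapc11, -0.35 ± 0.09) and 1 of 13 Cdk inhibitors (Cdkn1c, p57, -1.76 ± 0.36). Over all male genes 5.68% were called lower and 7.14% higher. DESeq2 results for these lists are not given here.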

How the data were processed

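Microglia were sorted by fluorescence from mouse spinal cord, and their RNA was sequenced in 15 female and 17 male libraries. The values are estimated counts per transcript, deposited by the authors as whole numbers in 1 table per sex. The submitters' processing notes name STAR 2.7.6a and RSEM 1.3.1, besides cutadapt 3.4, Trim Galore 0.6.7, MultiQC 1.11, FastQC 0.11.9, R 4.1.3 and DESeq2 1.34.0, with the mouse build GRCm38. Their roles are not stated, and the annotation release is not given in the sources used here. Read from the tables, no transcript is listed unless 8 or more of 15 female, or 9 or more of 17 male libraries, hold 10 counts or more, so a gene seen in few libraries cannot appear. A further deposited column, a score of deviation per row, was made by the authors and not used.

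Transcripts were summed by gene identifier. For each table, edgeR 4.0.16 (R 4.3.3) was run on all 4 groups at once, with TMM scaling and robust quasi-likelihood testing, and filterByExpr removed no gene. Benjamini-Hochberg adjustment covered all genes, and an adjusted p below 0.05 was called. Standard errors are |log2 change| over the root of the F statistic. The difference between tables was fitted over 25822 shared transcripts of 11617 genes. The script was tested on simulated data. Alternatives were library totals, size factors, DESeq2 1.42.0, other filters, the top transcript, the compared groups alone, the replicate block, V number ranges and leaving out each library. No 2 libraries agreed within sampling noise.

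Genes given by library are a fixed panel of 10 and, for each fracture state, up to 6 called female members with the lowest adjusted p, with up to 4 called genes per other list. Racgap1, called in the test between the tables and named after its values were seen, and Ect2 were added outside this rule. Members and lists were chosen with earlier results of these data known. Promoters and positions are from RefSeq on GRCm38.p6, and transcript lengths from the reference tables given with the data. Female values rest on 16438827 to 18654165 counts per library and male values on 5722993 to 33697535.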

Additional observations from a re-analysis of the deposited data

Results flagged for a closer look

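The 73 groups of 4 to 10 libraries tested covered the genes given by library under the rule above, and the summed member level. In 6 of them, all for single genes, 1 library lay far from the rest, where chance gives about 1 in 20. In female resident microglia without fracture, replicate 1 had 26.8 CPM of Kif11 against a nearest value of 8.4, and 85.7 CPM of Prc1 against 39.2. In female resident microglia with fracture, replicate 3 had 7.27 CPM of Ttk against 2.43 and 23.5 CPM of Kif18b against 12.8. In male resident microglia with fracture, replicate 1 had 3.06 CPM of Kif11 against 1.22. In male repopulated microglia with fracture, replicate 7 had 8.86 CPM of Plk1 against 4.20.

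The repopulation effect differed between the female and male tables for Racgap1, by -1.88 ± 0.46, and for Cdk1, by -1.49 ± 0.38 on the log2 scale (SE, edgeR adjusted p = 0.0437 and 0.0488). These calls were lost in 21 and 25 of 36 alternatives. Racgap1 had 11.6 to 37.4 CPM as group means in females, with both repopulated means below the resident ones. Without fracture, its male level was 1.39 to 8.22 CPM in resident and 12.2 to 21.8 in repopulated libraries. These values do not stand for both fracture states. The male repopulation effect on Racgap1 changed by -2.44 ± 0.65 with fracture, which did not pass (SE, edgeR adjusted p = 0.367). Sex cannot be told apart from the library method here.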

How the results depend on the processing

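The mean female comparison had 20 to 37 lower calls under the alternatives outside leave-one-out, and 23 to 36 in leave-one-out. In females without fracture, the count of 2 became 13 with DESeq2, 1 with the top transcript only, 0 with the compared groups alone and 0 with the replicate block, and 0 to 3 without single libraries. With fracture, 13 became 31 with DESeq2 and 7 with the replicate block, and 4 to 23 without single libraries. The fracture effect in female repopulated microglia went from 0 to 1 with DESeq2. In males without fracture, 0 became 1 with DESeq2 size factors (Racgap1) and 1 with DESeq2, and 0 to 2 without single libraries; averaged over fracture states it became 1 with DESeq2 size factors, 1 with DESeq2 and 1 with a mean of at least 1 CPM (Smc4 in each), and 0 to 2 without single libraries. In males with fracture, 1 became 0 with the top transcript, 0 with the V number range as a term, 0 within V64 to V69, 0 within V99 to V110 and 2 with the compared groups alone, and 0 to 2 without single libraries. The difference between the tables went from 2 to 1 with DESeq2 size factors, 8 with DESeq2 and 0 with the replicate block, and 0 to 8 without single libraries. The cause of these changes was not tested.

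Among the genes given by library under the stated rule, log2 changes that turned sign were all male and not called. Without fracture they were Plk1 with library totals (-0.016) and Mki67 with the replicate block (-0.039). With fracture they were Kif11 within V99 to V110 (0.33), Cdk1 within V64 to V69 (0.11), Aurkb within V64 to V69 (0.0076), and Ndc80 with the V term (0.054) and within V99 to V110 (0.51). Leaving out single libraries without fracture gave -0.91 to 0.13 for Birc5, -0.078 to 0.84 for Aurkb, -0.26 to 0.47 for Stmn1, -0.97 to 0.71 for Plk1, -1.42 to 0.96 for Mki67 and -2.91 to 1.99 for Kif18b. With fracture it gave -1.35 to 0.16 for Kif11, -0.25 to 0.18 for Cdk1, -0.32 to 0.22 for Aurkb and -0.34 to 0.12 for Ndc80. With library totals the median of all genes moved to -0.11 in females without fracture, and that of the members to -1.41. Where 1 library remained in a group, its spread was assumed to be that of the other groups.

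The labels do not say whether equal replicate numbers pair the libraries. The deviations of same-numbered libraries correlated from -0.455 to 0.329 in females, with 4 of 21 pairs above 0.1. In males they correlated from -0.092 to 0.062. With so few libraries per group, these values cannot settle whether libraries were paired. With the replicate block the mean female count was 20. Low male counts limit single genes: up to 8 members were at 0 in a library.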
